A study of Mus musculus with 8 samples.

Results

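The promoters of signal-responsive and lineage transcription factors were followed here in mouse kidney tubuloids, by ATAC-seq, which reads open chromatin as the DNA that the Tn5 transposase can reach. A peak was a member when its centre lay 1000 bp or less from the start site of a gene whose symbol belonged to one of the named factor families (ATF, CREB, JUN, FOS, MAF, KLF, SP, ETS, ELF, ELK, STAT, IRF, FOX, SOX, HOX, GATA, TCF, numbered nuclear receptors, TEAD, NFI, NFY, BHLH and USF). Nr1d1 and Nr3c2 were set aside by the rule. This took 50 of the 6425 peaks in the table, at 48 genes on 16 chromosomes. The rule reads names and distances only, but it was set with earlier results of these data known. Tubuloids are epithelial structures grown in Matrigel, here from the renal cortex of wildtype mice. The 4 vehicle libraries and the 4 libraries of tubuloids given myoglobin, the haem protein that injured muscle releases, were all collected after 12 h. The cells are labelled renal tubular epithelial cells, and no dose or age is given in the labels. The design text names 4 mice without tying any library to a mouse, so the p-values measure the spread between these libraries, which may be partly technical.

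These factors sit at the end of signalling pathways. JUN, FOS, ATF and CREB proteins pair through leucine zippers and bind short palindromes after kinases of the MAPK or cAMP pathways act on them, STAT and IRF proteins carry cytokine and interferon signals, and KLF and SP zinc fingers bind GC-rich boxes in a great many promoters. SOX, FOX and nuclear receptor proteins are better known for setting or keeping cell identity and metabolism. Genes of the first kind often keep an open promoter before any stimulus.

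The name pattern also took in genes of another kind, and 4 peaks were listed as such. They lay at Crebrf, a regulator of CREB3 proteins, at the IRF2-binding corepressor genes Irf2bp2 and Irf2bpl, and at Tcf25, which works in the quality control of stalled ribosomes. They were kept, and set apart in the counts by family. All other peaks, Tcf19 among them, were placed in families by symbol alone. No HOX, GATA or TEAD gene had a member peak, and the only FOX gene was Foxo6, so the lineage side was thin at this limit. Hoxb7 had a peak at 1136 bp, with values of 23 to 26 in vehicle and 17 to 23 in myoglobin. Foxo3 had a peak at 1166 bp, with values of 18 to 29 and 25 to 33. Just past the limit were Bhlhe40 at 1026 bp, with values of 36 to 59 in vehicle and 52 to 60 in myoglobin, and Tcf4 at 1066 bp, with values of 5 to 11 and 8 to 12. Just inside it were Sox12 at 867 bp and Nr2c2 at 783 bp.

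The promoter sequences show what kind of DNA lies in front of these starts. A RefSeq promoter entry (GRCm38.p6, the assembly that mm10 names, from 250 bases before to 50 after a start) was matched for 41 of the 48 genes, and 38 of these entries lay within 1000 bp of the start used in the table. Crebl2, Foxo6, Klf10, Klf16, Klf5 and Mafa were among the genes with no entry, and those of Jund, Nfia and Nr2c2 belonged to another start. Of the 40 member peaks at these 38 genes, 30 shared bases with their entry and 10 did not, so the sequences describe the promoters and not in every case the peaks. Shown here are the 250 bases before the start of Sp4, Usf3 and Elk4, the genes of the 3 lowest p-values in the comparison with myoglobin, and of Sp1, the highest member. The entry of Usf3 shares 56 bases with its peak and that of Sp1 shares 203. The entry of Sp4 shares 183 with the peak at 153 bp and 0 with the peak at 716 bp, which has the low p, and that of Elk4 shares 0 with its peak. Capitals mark GC boxes, with the letters GGGCGG on either strand, and CCAAT boxes, whose name gives their letters. They also mark the core that ETS proteins bind, searched on both strands as CCGGAA. In the Sp1 promoter 1 CCAAT box and 1 GC box overlap.
Sp4 (chr12:118301441-118301690, minus strand): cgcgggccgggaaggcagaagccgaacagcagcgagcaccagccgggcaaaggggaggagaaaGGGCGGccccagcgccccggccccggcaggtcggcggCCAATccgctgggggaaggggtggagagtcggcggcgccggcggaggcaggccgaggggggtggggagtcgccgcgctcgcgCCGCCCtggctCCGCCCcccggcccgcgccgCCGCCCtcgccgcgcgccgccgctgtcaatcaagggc
Usf3 (chr16:44173147-44173396, plus strand): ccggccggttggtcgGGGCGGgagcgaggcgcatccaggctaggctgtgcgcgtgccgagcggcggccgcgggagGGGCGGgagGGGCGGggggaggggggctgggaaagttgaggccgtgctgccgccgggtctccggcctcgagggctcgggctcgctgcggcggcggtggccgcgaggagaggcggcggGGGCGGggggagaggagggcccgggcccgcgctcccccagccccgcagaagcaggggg
Elk4 (chr1:132007370-132007619, plus strand): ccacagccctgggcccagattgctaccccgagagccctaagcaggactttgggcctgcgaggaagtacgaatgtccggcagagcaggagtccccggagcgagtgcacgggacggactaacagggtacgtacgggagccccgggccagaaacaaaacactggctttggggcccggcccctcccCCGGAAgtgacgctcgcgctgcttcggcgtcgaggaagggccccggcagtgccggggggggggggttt
Sp1 (chr15:102406066-102406315, plus strand): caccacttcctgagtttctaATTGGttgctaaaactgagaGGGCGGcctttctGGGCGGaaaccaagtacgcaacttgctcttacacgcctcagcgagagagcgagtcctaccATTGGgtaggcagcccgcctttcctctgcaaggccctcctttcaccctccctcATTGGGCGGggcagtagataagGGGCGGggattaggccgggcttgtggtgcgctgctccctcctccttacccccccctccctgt

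The 250 bases of Sp4 held 4 GC boxes and 1 CCAAT box, those of Usf3 4 GC boxes, those of Sp1 4 GC boxes and 3 CCAAT boxes, and those of Elk4 a single ETS core. Sp1 and Sp4 thus encode GC-box binding proteins and carry such letters in front of their own starts. Over the full 300-base entries, 30 of 38 members (78.9%) held a GC box, against 77.3% of 2944 other genes with a start-site peak in the table and 35.6% of all 32817 RefSeq entries. A CCAAT box was found in 21 members (55.3%, against 49.4% and 37.4%). The share with an ETS core was 13.2% (Atf6b, Crebrf, Elk4, Stat2 and Tcf25), below the 30.6% of the other genes and near the 14.9% of all entries. An E-box (CACGTG), the letters that USF proteins bind, stood in 6 members (15.8%, against 10.2% and 7.15%), namely Atf6b, Atf7, Crebrf, Klf11, Klf4 and Klf6. These shares are descriptions with no test, and a match is not a bound site.

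Elements for CREB, for JUN and FOS, and for STAT proteins were rare in these windows, and also in those of the other genes. The full cAMP response element (TGACGTCA) appeared in 1 of 38 members (2.63%, against 3.97% of the other genes and 1.79% of all entries), 30 bases before the start of Irf2bpl, given with the element in capitals.
Irf2bpl (chr12:86884821-86884860, minus strand): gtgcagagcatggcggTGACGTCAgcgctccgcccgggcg
The AP-1 letters (TGACTCA) were in 0 of 38 members, against 3.09% of the other genes and 5.20% of all entries. A TATA box, searched as TATAAA, was also in 0, against 4.14% and 13.6%. The STAT letters (TTCCNGGAA) were in Crebrf alone (2.63%, against 0.747% and 1.15%), and the KLF-type letters CCACACCC in Nfya alone (2.63%, against 4.04% and 3.56%). No match says only that these letters are not in this window. Median GC content was 65.8% in the members (45.0% to 80.3%), 63.7% in the other genes and 52.7% in all entries, and the median number of CG dinucleotides was 28, 24 and 7. A coding gene started within 1000 bp on the opposite strand at 3 of 38 members (7.89%, against 14.1% of the other genes). These were Tln1 at 75 bp from Creb3, Oard1 at 180 bp from Nfya and Cchcr1 at 225 bp from Tcf19, so a peak there lies near both starts.

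The deposited values are reads per peak that were scaled between libraries and rounded, with no unit of their own. The member peaks were taller than most promoter peaks of the table. Their median vehicle mean was 26.8 (4.5 to 106), against 17.5 for the other 4112 peaks within 1000 bp of a start site. Of the 50 members, 34 stood above the median of start-site peaks over all 8 libraries. A mean of 50 or more was reached by 6 members (12.0%, against 4.84% of the other start-site peaks), and 4 members were under 10 (8%, against 20.6%). They were also wider, with a median width of 288 bp against 222 bp, and width and height went together across the members (Pearson r of the logs 0.90 over 50 peaks, and 0.88 over the other 4112, points that share libraries). Per 100 bp of peak the members had a median value of 8.69 and the others 7.96. These comparisons of peaks are descriptions with no test.

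Sp1, the ubiquitous GC-box activator, had the highest member peak and the sixth highest of the whole table by mean value. Its 774-bp peak (chr15:102405494-102406268) had vehicle values of 100, 102, 120 and 102 and myoglobin values of 90, 122, 127 and 90. The groups lay over each other, and the log2 difference, myoglobin minus vehicle on log2(value + 1), was 0.00 ± 0.11 (SE, n = 4 each). Next came the start-site peak of Nr1d2, which encodes the haem-binding clock repressor REV-ERB beta, with a mean of 63.5. Nr2c2, the gene of the orphan receptor TR4, followed at 62.0, then Crebrf at 52.4, and Elf3, an epithelial ETS factor, and Stat3, the main transducer of interleukin-6 signals, at 51.1 each. At the other end stood Klf4 at 5.50 and Klf11 and Usf1 at 7.50 each. Per 100 bp of peak, Sp1 stood at 13.78 and Tcf25 was the lowest at 4.45.

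**Figure D1:**
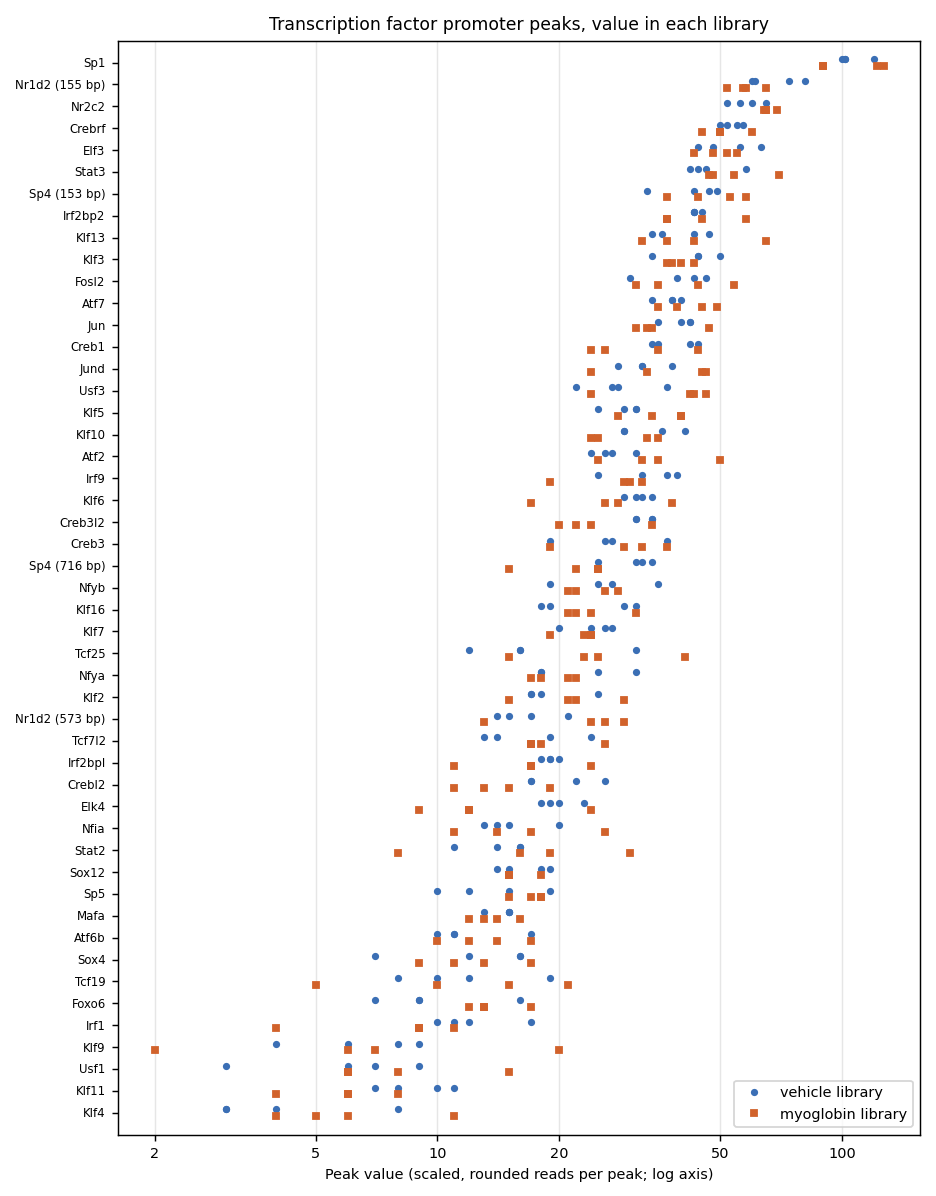
Value of 49 of the 50 promoter peaks in each library, ordered by mean, on a log axis of scaled and rounded reads per peak (circles: 4 vehicle libraries; squares: 4 myoglobin libraries). Sp1 lies at the top with values of 90 to 127, Klf4 at the bottom, and no peak has all squares on one side of all circles.

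Measured from the start assigned in the table, member peaks were centred upstream more often than inside the gene. The RefSeq start lay within 50 bp of the assigned one at 28 of the 40 matched member peaks. It lay up to 893 bp away, at Klf7, whose peak is inside the gene by the assigned start and upstream by the RefSeq start. The same holds for Creb3, with starts 326 bp apart. The centre was upstream at 36 of 50 (72.0%, against 63.6% of the other start-site peaks) and within 200 bp at 32 (64.0%, against 78.9%). All 11 leucine zipper peaks were within 200 bp of the assigned start, although the RefSeq start of Fosl2 lay 671 bp from the assigned one. The KLF and SP peaks, in contrast, were spread, with 7 of 15 within 200 bp and 13 of 15 upstream. Sox12 at 867 bp and Sp4 at 716 bp upstream were the most distant on that side, and Nr2c2 at 783 bp and Crebrf at 727 bp inside the gene on the other. Exons and introns were not mapped here.

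**Figure D2:**
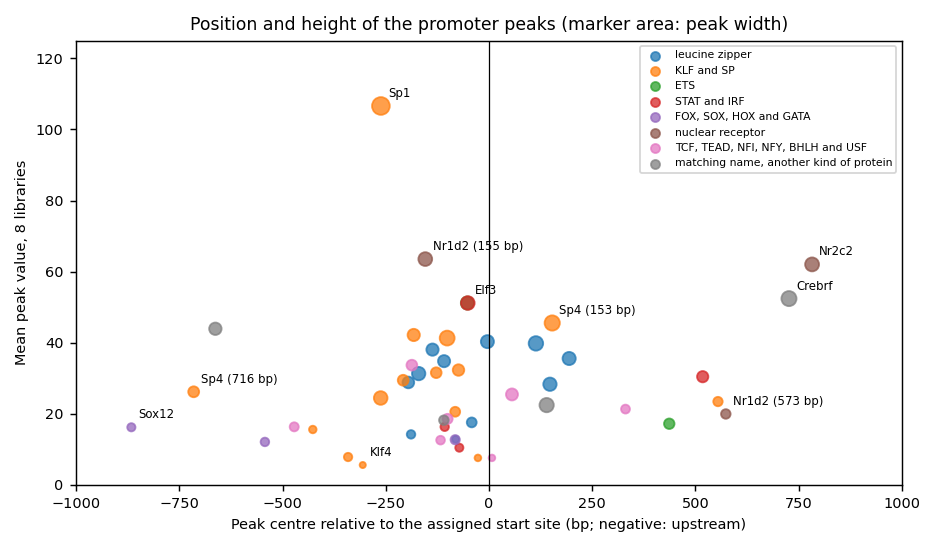
Centre of 49 member peaks relative to the assigned start site (bp, negative upstream) against their mean value over 8 libraries, coloured by family, with marker area proportional to peak width. The tall peaks lie both near the start (Nr1d2, Elf3) and far inside the gene (Nr2c2 at 783 bp), and most centres are upstream.

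The comparison asked whether 12 h of myoglobin changed the openness of these promoters. None of the 50 peaks passed an adjusted p of 0.05 by limma, fitted and adjusted over all 6425 peaks. Of those 6425 peaks 16 (0.249%) passed, and of the other 4112 start-site peaks 3 passed. A count of 0 in 50 is near both shares. The lowest adjusted p of a member was 0.575. An unadjusted p under 0.05 was found at 7.6% of all peaks and at 6.98% of the other start-site peaks. Among members there were 3 (6%), at Sp4, Usf3 and Elk4. That count was 0, 1 and 2 without vehicle replicates 1, 2 and 3, and 5 without myoglobin replicate 1 or 4. No member had groups that did not overlap, against 3.04% of all peaks and 120 of the other 4112 start-site peaks. The median log2 difference of the members was 0.02, with 28 above 0 and 22 below, beside -0.02 over all peaks. Member peaks together held 1.12% to 1.18% of each vehicle library and 1.13% to 1.20% of each myoglobin library.

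These data set an outer limit on the size of a change at most members, and a smaller change could have been missed. At 44 of 50 members the 95% interval of the log2 difference lay between -1 and 1, that is, within a 2-fold change either way. This was also so at 3290 of the other 4112 start-site peaks. The standard errors ran from 0.11 at Sp1 to 0.45 at Klf4, with a median of 0.21. By the median over members, the spread between libraries was near that of read counting. An SD from 4 libraries more often falls under the true one than over it, so some spread beyond counting may be hidden. Among vehicle libraries the members' median coefficient of variation was 17.0%, where counting of the estimated reads alone gives 16.9%, and among myoglobin libraries it was 22.5%, where counting gives 23.5%. Depth moved with treatment, from 130568 to 200680 estimated reads in peaks per vehicle library and from 67609 to 123453 per myoglobin library. Its part in these results was not tested. A member peak had a median of 143 estimated reads over the 4 vehicle libraries and of 80 over the 4 myoglobin libraries, and in myoglobin the smallest sum was 19, at Klf4 and at Klf11.

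**Figure D3:**
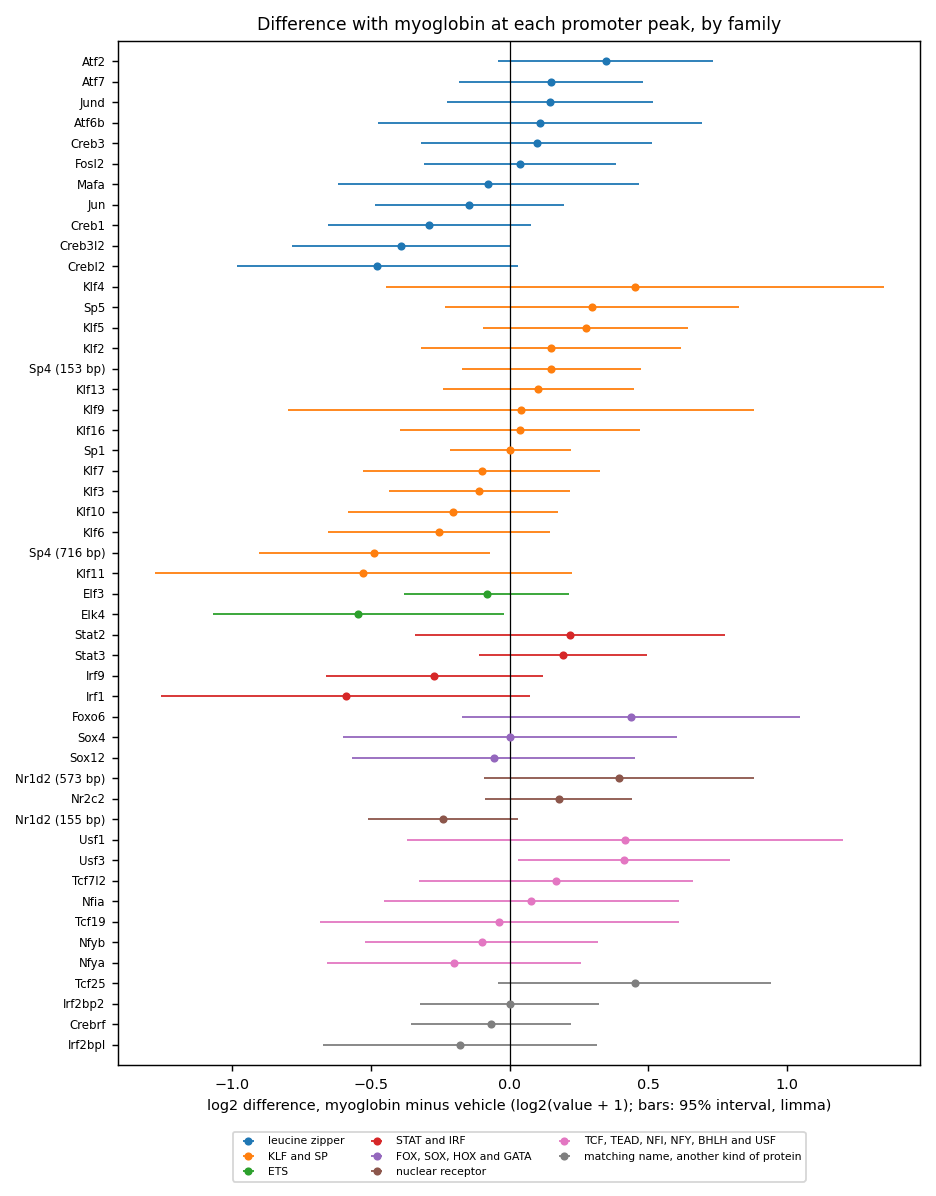
Log2 difference, myoglobin minus vehicle on log2(value + 1), of 49 member peaks, each with its 95% interval from limma (n = 4 each), grouped and coloured by family. Points lie on both sides of 0 in every family except ETS, with only 2 peaks, and the intervals of the Sp4 peak at 716 bp, Elk4 and Usf3 alone leave out 0 before adjustment.

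Leucine zipper genes had 11 peaks, of which 0 passed, with 6 differences above 0 and 5 below and a median of 0.04. Jun, the core AP-1 subunit, had vehicle values of 35, 42, 42 and 40 and myoglobin values of 47, 31, 34 and 33. Of the 4 myoglobin libraries, 3 were thus under all vehicle libraries and the other was above them all, and the difference was -0.14 ± 0.17 (adjusted p = 0.909), running from -0.27 to -0.0778 without myoglobin replicate 1 or 2. Without myoglobin replicates 2 and 3 the Jun difference was -0.0088. Jund, its more constant relative, stood at 28, 32, 38 and 32 in vehicle and 33, 24, 45 and 46 in myoglobin (0.14 ± 0.19). Fosl2, a FOS-related AP-1 partner, was at 39.5 ± 6.95 and 41.0 ± 10.2 (SD, n = 4 each), a difference of 0.04 ± 0.17. Neither AP-1 partner therefore differed beyond its error, and the Fosl2 difference turned below 0, to -0.24, without myoglobin replicates 2 and 3.

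The CREB genes held the larger negative values of this family. Creb3l2, which encodes a membrane-bound factor of the secretory pathway, had vehicle values of 34, 31, 34 and 31 and myoglobin values of 24, 20, 22 and 34. Only myoglobin replicate 4 reached the vehicle range, and the difference was -0.39 ± 0.20 (adjusted p = 0.649), or -0.18 without myoglobin replicates 2 and 3. Crebl2, a small CREB-like zipper gene, had values of 22, 17, 17 and 26 against 11, 15, 13 and 19, a difference of -0.48 ± 0.25 (adjusted p = 0.673) with overlap through myoglobin replicate 4 alone. Creb1, the classical cAMP-responsive activator, was at 38.8 ± 4.99 and 32.3 ± 9.18, a difference of -0.29 ± 0.18 (adjusted p = 0.742), which was -0.17 without myoglobin replicate 1 and -0.45 without myoglobin replicate 4. Creb3, next to Tln1, did not share this direction, at 0.10 ± 0.21. On the positive side Atf2, a stress-kinase target, was at 27.0 ± 2.94 and 35.5 ± 10.5 (0.35 ± 0.19, adjusted p = 0.698), a gap carried in part by a value of 50 in myoglobin replicate 4. Atf7, Atf6b and Mafa lay between -0.08 and 0.15. No member peak belonged to Fos, Junb, Atf3, Atf4 or Atf6, although Junb had a peak at 1544 bp, with values of 9 to 19 in vehicle and 7 to 18 in myoglobin.

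KLF and SP genes, 15 peaks at 14 genes, had a median difference of 0.04, with 9 above 0 and 6 below and none that passed. The lowest p among all members was that of the Sp4 peak 716 bp upstream (chr12:118302009-118302302). Its values were 34, 32, 25 and 31 in vehicle and 25, 15, 22 and 25 in myoglobin. The groups met at 25, which was the lowest vehicle value and the highest myoglobin value, and the difference was -0.49 ± 0.21 (adjusted p = 0.575), or -0.27 without myoglobin replicates 2 and 3. Klf5, an epithelial factor linked to injury and proliferation, was at 29.0 ± 2.83 and 35.5 ± 5.74 (0.27 ± 0.19, adjusted p = 0.761). Klf6, an early response gene of injured tubules, was at 32, 31, 34 and 29 in vehicle and at 26, 38, 17 and 28 in myoglobin. Its myoglobin values were lower in 3 libraries and higher in the other than any in vehicle (-0.25 ± 0.20, adjusted p = 0.833), and the difference was -0.43 without myoglobin replicate 2 and -0.0541 without myoglobin replicate 3. Klf11 was at 9 ± 1.83 and 6 ± 1.63 (-0.53 ± 0.38, adjusted p = 0.791) and Klf4 at 4.5 ± 2.38 and 6.5 ± 3.11 (0.45 ± 0.45, adjusted p = 0.888). With 1 library left out Klf4 ran from 0.20 (without myoglobin replicate 3) to 0.72 (without vehicle replicate 4). The other KLF and SP peaks lay between -0.20 at Klf10 and 0.30 at Sp5.

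Sp4, a relative of Sp1 best known from neurons, and Nr1d2 each had a pair of member peaks, and Klf10, Jun and Irf2bpl each had a second peak farther out. A ratio of 2 peaks in the same library depends on how libraries were scaled to one another only through the added 1 and the rounding. At Sp4, the ratio of the peak at 153 bp to that at 716 bp, on value + 1, was 1.43, 1.45, 1.31 and 1.38 in vehicle and 1.73, 2.38, 2.57 and 2.08 in myoglobin. Every myoglobin ratio exceeded every vehicle ratio. The 2 highest came from myoglobin replicates 2 and 3, the libraries with the fewest estimated reads in peaks (82475 and 67609). The peak at 153 bp itself was at 43.0 ± 7.12 and 48.0 ± 9.35 (0.15 ± 0.16). The mean log2 ratio was 0.48 ± 0.07 and 1.11 ± 0.25 (SD, n = 4 each), a difference of 0.64. Estimated reads over the 4 vehicle libraries were 234 at the peak at 153 bp and 165 at that at 716 bp. Over the 4 myoglobin libraries they were 150 and 70. In vehicle, counting alone gives coefficients of variation of 13.4% and 15.9% at these peaks. The vehicle ratios lay closer together than such counting gives on average, and the reason was not tested. The two-sided exact permutation test over 70 assignments gave p = 0.0286, the smallest it can give. The ratio was chosen after values were seen and uses the peak at 716 bp again, which had the lowest p of all members. It is therefore not separate support for a change at Sp4. Benjamini-Hochberg adjustment of the exact p over these 5 genes gave p = 0.143, which is the smallest that a single gene can reach among them, so it could not have passed. Of 200 genes with a pair of peaks in the table, 9 (4.5%) had ratios that did not overlap between groups.

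At Nr1d2 the difference ran the other way. The ratio of the peak at 155 bp to that at 573 bp was 3.44, 3.41, 4.07 and 5.13 in vehicle and 4.71, 2.15, 2.12 and 1.97 in myoglobin. In the myoglobin group 3 libraries lay under all vehicle libraries and myoglobin replicate 1 lay among them, with a log2 difference of -0.63 (two-sided exact permutation p = 0.114, adjusted 0.286). The tall peak had values of 61, 74, 60 and 81 in vehicle and 65, 57, 52 and 58 in myoglobin (-0.24 ± 0.14, adjusted p = 0.698). The lower peak, inside the gene, had 17, 21, 14 and 15 against 13, 26, 24 and 29 (0.39 ± 0.24, adjusted p = 0.734). Without myoglobin replicate 1 the log2 ratio differed by -0.93 and that lower peak by 0.63 (adjusted p = 0.391). The lower peak differed by 0.27 without myoglobin replicate 4 and by 0.22 without myoglobin replicates 2 and 3. At Klf10, Jun and Irf2bpl the ratios overlapped, with log2 differences of -0.16, -0.06 and -0.03 and exact permutation p-values from 0.657 to 0.943.

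**Figure D4:**
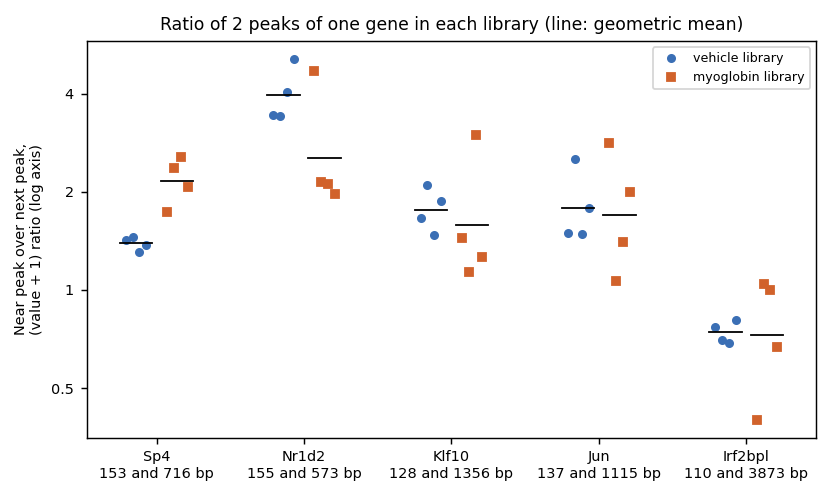
Ratio of the peak nearest the start site to the next peak of the same gene in each library, on value + 1 and a log axis, for the 5 member genes with 2 peaks (circles: vehicle; squares: myoglobin; lines: geometric means). At Sp4 all 4 myoglobin ratios (1.73 to 2.57) lie above all 4 vehicle ratios (1.31 to 1.45), and at the other genes the groups overlap.

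STAT and IRF genes had 5 peaks, none of which passed. Irf1, the interferon-induced activator, had the most negative difference of all members. Its values were 10, 11, 12 and 17 in vehicle and 11, 9, 9 and 4 in myoglobin (-0.59 ± 0.33, adjusted p = 0.698). Without myoglobin replicate 4, the library at 4, the difference was -0.32. Stat3 was at 42, 46, 58 and 44 in vehicle and 54, 70, 47 and 48 in myoglobin (0.19 ± 0.15, adjusted p = 0.828). Its groups overlapped, the highest value, 70, being in myoglobin replicate 2, without which the difference was 0.0715. Without vehicle replicate 3 it was 0.29. Irf9 and Stat2, which encode parts of the complex that carries type I interferon signals, had differences of opposite sign, Irf9 at -0.27 ± 0.20 (adjusted p = 0.792) and Stat2 at 0.22 ± 0.28 (adjusted p = 0.915). Without myoglobin replicate 3 the Irf9 difference was -0.11, and the difference between the 2 genes was not tested.

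The ETS peaks belonged to Elk4 and Elf3. Elk4, a partner of serum response factor at immediate early genes, had vehicle values of 20, 19, 23 and 18 and myoglobin values of 12, 12, 9 and 24. In the myoglobin group 3 libraries lay under all vehicle libraries, and replicate 4 lay above them. The difference was -0.55 ± 0.26 (adjusted p = 0.633), and ran from -0.37 (without myoglobin replicate 3) to -0.81 (without myoglobin replicate 4, adjusted p = 0.339) with 1 library left out. Without myoglobin replicates 2 and 3 it was -0.21. Elf3 was at 52.8 ± 8.46 and 49.5 ± 5.20 (-0.08 ± 0.15, adjusted p = 0.943).

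Lineage factors and nuclear receptors also had no peak that passed. Sox4, expressed in the developing and the regenerating nephron, was at 12.8 ± 4.27 and 12.5 ± 3.42 (0.00 ± 0.30), and Sox12 at 16.5 ± 2.38 and 15.8 ± 1.5 (-0.06 ± 0.26). Foxo6, a forkhead factor under insulin control, was at 9, 9, 16 and 7 in vehicle and 13, 12, 17 and 13 in myoglobin (0.44 ± 0.31, adjusted p = 0.770). Its vehicle replicate 3, at 16, lay within the myoglobin range while the rest lay under it. Nr2c2 was at 58.3 ± 5.56 and 65.8 ± 2.22, a difference of 0.18 ± 0.13 (adjusted p = 0.811).

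Among the TCF, NFI, NFY and USF genes, 7 peaks had a median difference of 0.08, and none passed. Usf3, an E-box factor gene, was at 28, 27, 22 and 37 in vehicle and 46, 24, 43 and 42 in myoglobin. In the myoglobin group 3 libraries were above all vehicle libraries and replicate 2 was not, and the difference was 0.41 ± 0.19 (adjusted p = 0.615). Without myoglobin replicate 2 it was 0.62, with the lowest adjusted p of any member in any alternative, 0.207, and without vehicle replicate 3 it was 0.30. Usf1 was low, at 6.25 ± 2.50 and 8.75 ± 4.27 (0.41 ± 0.39, adjusted p = 0.877), with a difference of 0.15 without vehicle replicate 4 or myoglobin replicate 2. Nfya and Nfyb, subunits of the CCAAT-binding trimer, were at -0.20 ± 0.23 and -0.10 ± 0.21, and Tcf7l2, the Wnt effector, at 0.17 ± 0.25. Of the 4 genes set apart as another kind, Tcf25 had the largest difference, at 12, 31, 16 and 16 in vehicle and 25, 41, 15 and 23 in myoglobin (0.45 ± 0.25, adjusted p = 0.685), where replicate values spread more than 2-fold within each group. Its difference was 0.21 without myoglobin replicate 2, 0.28 without vehicle replicate 1 and 0.71 without vehicle replicate 2. Crebrf, Irf2bpl and Irf2bp2 lay between -0.18 and 0.00.

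Lists of related genes outside the name pattern gave the same count of 0 called peaks by limma. At an unadjusted p under 0.05 there was 1 peak each among the nuclear receptors, the other signal-responsive factors and the kinases and coactivators, and 0 among the kidney lineage factors, against 7.6% of all peaks. Groups that did not overlap were found at 1 of 31 peaks of the other signal-responsive factors and at 1 of 24 peaks of the kinases and coactivators, against 3.04% of all peaks. These were the NF-kappaB subunit gene Nfkb2, with values of 9 to 12 in vehicle and 15 to 18 in myoglobin (adjusted p = 0.673), and Map3k7, the gene of the kinase TAK1, with 7 to 11 and 12 to 13 (adjusted p = 0.839). Of 21 nuclear receptor genes with other names, 4 had a peak, with a median difference of 0.03, and Thrb, a thyroid hormone receptor gene, stood highest at 0.62 ± 0.30 (adjusted p = 0.633). Thrb had values of 21, 7, 13 and 6 in vehicle and 13, 17, 17 and 20 in myoglobin. Vehicle replicate 1 thus lay above every myoglobin library. Of 50 other signal-responsive factors, 27 had 31 peaks with a median of -0.05 and 14 above 0. Nfatc3, a calcineurin-activated factor gene, was at 16, 19, 13 and 12 in vehicle and 22, 26, 28 and 18 in myoglobin (0.62 ± 0.24, adjusted p = 0.551). Of 44 upstream kinases and coactivators, 24 had a peak, with a median of 0.05, and Crtc2, a CREB coactivator gene, was at 29, 36, 36 and 32 against 31, 28, 17 and 21 (-0.47 ± 0.20, adjusted p = 0.575). Of 30 kidney lineage factors, 9 had 10 peaks, with a median of -0.13 and 2 above 0, none with an adjusted p under 0.844.

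The labelled tissue could be checked only in part. Of 7 general renal epithelial markers, Cdh1, Cdh16, Epcam and Pax2 had peaks, with vehicle means from 17.8 to 36.5 and differences from -0.30 to 0.00. One of 7 proximal tubule markers (Cryl1) and 1 of 6 loop and distal markers (Scnn1g) had a peak. No peak was assigned to the 4 endothelial, 4 fibroblast and pericyte, 4 immune or 3 podocyte markers.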

How the data were processed

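Peaks on mm10 were deposited as a single set for all libraries, with a gene, a start-site distance and 1 whole number per library. Per the submitters' processing notes, the tools include STAR 2.7.10a, featureCounts, Trimmomatic 0.39, DESeq2 1.36.0 and Picard 3.0.0; roles, the peak caller and any Tn5 shift are not given in the sources used here. The deposited values were treated as a score, because the spacing of whole numbers in each column shows reads scaled by the authors and rounded. That spacing also gave each library's scaling factor and estimated reads (tested on simulated data). Per the labels' protocols, 50000 cells were used per reaction.

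The fit was limma 3.58.1 (R 4.3.3) on log2(value + 1), with treatment as the only term, a variance trend and Benjamini-Hochberg adjustment over 6425 peaks, threshold 0.05. The spread at a peak is mostly borrowed, with 78.5 prior against 6 residual degrees of freedom. Because the unit is a score, no count test was run. Members, families and lists were chosen with earlier results of these data known. Named peaks (29) had an unadjusted p under 0.05 or groups apart, ranked first or second by p or first by height in a family, were among the 6 highest or 3 lowest members, had a second member peak, or belonged to 19 genes always reported. Others named, and the ratios of 2 peaks, were chosen after values were seen. Same-numbered libraries were not paired by any label. The counts include 1 member that is not reported here by name or drawn.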

Additional observations from a re-analysis of the deposited data

Results flagged for a closer look

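In 7 of 100 sets of 4 libraries (50 peaks in 2 groups), a single library was set off from its group by the test of Dixon, where chance flags about 1 in 20, here 5 sets. The values are small whole numbers, so that any other value is flagged beside 3 equal ones. This was so for Sox12 (18 in myoglobin replicate 2, 15 in the others), Irf2bp2 (45 in vehicle replicate 3, 43 in the others) and Mafa (13 in vehicle replicate 1, 15 in the others). Vehicle replicate 3 also stood apart at Sp1 (120, the others 100 to 102) and at Atf6b (17, the others 10 to 11). Klf2 had 25 in vehicle replicate 4, the others being 17 to 18. Tcf7l2 had 26 in myoglobin replicate 3, the others being 17 to 18.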

How the results depend on the processing

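No member peak passed in any alternative: pseudocounts of 0.1 and 5, median-ratio or equal-total scaling, filters at mean values of 1 and 10 (the latter keeping 46 member peaks), no variance trend, the replicate block, myoglobin replicates 2 and 3 left out, each library left out, windows of 500 bp (41 peaks) and 5000 bp (60 peaks), and library weights, which were chosen after seeing the data. The lowest adjusted p ran from 0.207 to 0.847. Peaks at an unadjusted p under 0.05 numbered 0 without vehicle replicate 1, 1 without vehicle replicate 2, 2 without vehicle replicate 3, and 5 without myoglobin replicate 1 or 4, against 3 with all libraries. The median log2 difference ran from -0.031 (without myoglobin replicate 3) to 0.0346 (without vehicle replicate 3) with 1 library fewer. No label says whether same-numbered libraries were paired. Their deviations had correlations of -0.01 to 0.03, which cannot tell, because the spread is near that of read counting. The replicate block left the median at 0.02 and 3 peaks at that unadjusted p.

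Of 29 named peaks, 23 kept their sign throughout. With myoglobin replicates 2 and 3 left out, the difference was 0.0328 at Elf3, -0.24 at Fosl2, -0.23 at Sp1 and -0.15 at Sox4. Library weights gave -0.0325 at Fosl2, -0.0351 at Sp1 and -0.0191 at Sox4. Equal totals gave -0.0009 at Sp1 and -0.0005 at Sox4, and a pseudocount of 5 gave -0.0051 at Sox4. With 1 library fewer, differences ran from -0.35 to 0.0069 at Irf2bpl, -0.16 to 0.0059 at Elf3, -0.13 to 0.0104 at Sox12, -0.10 to 0.16 at Fosl2, -0.0848 to 0.0793 at Sp1 and -0.24 to 0.14 at Sox4. The cause was not tested. The Sp4 ratio difference, an alternative set added after seeing the data, ran from 0.56 to 0.75 and that of Nr1d2 from -0.93 to -0.51.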
